A study of Mus musculus with 3 samples.

Results

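Respiratory complex I, the NADH:ubiquinone oxidoreductase of the mitochondrial inner membrane, is encoded largely by nuclear genes whose symbols begin with Nduf. Every probe set annotated to a single gene of that name was taken, and each gene was read from its brightest probe set by mean intensity over the arrays. This gave 44 genes out of 18193 with a single-gene probe set on the array, read by 88 single-gene probe sets. A further 8 probe sets whose annotation opens with an Nduf gene and lists several genes were set aside. Of the 44 genes, 42 had a mean intensity above 71.5, the median of all values, and were tested. Each of the 42 was also above that level on the ND array alone, where the lowest read 163.

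Each array was hybridised with total RNA of sorted splenic T cells from BALB/c mice, of the memory phenotype CD4 class, which are antigen-experienced helper T cells. The mice ate a normal diet (ND, 1 array) or a high fat diet (HFD, 60 kcal% fat, 2 arrays) for 10 weeks, and no genotype or other treatment is named. The labels do not say how many mice each array represents or whether the HFD arrays came from separate mice, so the spread behind each p-value is that of these samples alone and may be technical. The comparison asks which transcripts differ between the diets. The number of arrays limits the precision.

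Complex I takes electrons from NADH on its matrix arm, passes them along flavin and iron-sulfur clusters to ubiquinone, and couples this to proton pumping through its membrane arm. Core subunits carry the catalysis, accessory subunits surround them, and assembly factors build the enzyme and then leave it. T cells raise mitochondrial respiration when they are activated, and memory T cells are known for their reliance on it. The core subunits encoded by the mitochondrial genome were not analysed here, nor were Ndufs6 and Ndufa11.

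The HFD arrays resembled each other more than either resembled ND. Over the 10339 genes tested, HFD 1 and HFD 2 differed from ND by a median absolute log2 value of 0.394 and 0.453, and from each other by 0.126. Of the 10 T cell identity genes measured, 7 were called lower in HFD, and their summed intensity was 100027 on ND and 83321 and 81202 on HFD, so all arrays read strongly for T cells. H2-Ea, a class II gene that some inbred strains lack and BALB/c mice express, read 11.5 on ND and 536 and 602 on HFD. The other class II genes H2-Aa, H2-Ab1, H2-Eb1 and Cd74 were all lower in HFD. Of the B cell genes, Ms4a1 and Fcer2a also rose from low ND values and 2 others fell (below). The low H2-Ea value on ND differs from what the BALB/c label implies. It is a single gene on a single array, and the strain was not tested. Nnt, a mitochondrial transhydrogenase gene that also varies between strains, read 1197 on ND and 1238 and 1433 on HFD and was not called. As ND is a single array, no comparison can be made without it, and diet cannot be told apart from strain, handling or batch.

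Most Nduf transcripts were higher in the HFD samples. Of the 42 genes tested, 29 rose, 2 fell and 11 were not called at an adjusted p under 0.05 in limma's moderated test. The rises were mostly modest, with 19 of the 29 under 1.5-fold, and reached 2.83-fold for the assembly factor gene Ndufaf4. Among all genes tested, 20.5% were called higher, 29.2% lower and 49.6% in either direction. Both HFD arrays lay above ND for 36 of the 42 genes and both below it for 6, against 35.8% and 54.7% of all genes. The median Nduf gene was 0.37 higher in HFD on the log2(intensity + 17.7) scale, while the median of all genes tested was 0.15 lower, so the Nduf median stood 0.53 above that of all genes.

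The spread comes from the HFD arrays alone, the lone ND array being assumed to vary like them. Without a variance trend the count of higher Nduf genes was 15, and 16% of all genes were called higher. The genes that lost their call there were Ndufa2, Ndufa8, Ndufa9, Ndufaf5, Ndufaf7, Ndufaf8, Ndufb5, Ndufb7, Ndufb8, Ndufb9, Ndufs3, Ndufs7, Ndufs8 and Ndufv1. With no filter, which tests more genes, the calls of Ndufa2, Ndufa9, Ndufaf5, Ndufaf7, Ndufaf8, Ndufb8, Ndufs7 and Ndufv1 were lost. Under quantile normalization those of Ndufa2, Ndufa9, Ndufb8 and Ndufs7 were lost, and with probe sets averaged those of Ndufa2, Ndufa10, Ndufaf8, Ndufb8 and Ndufs8. In these bulk samples more cells of a type and more RNA per cell cannot be told apart.

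Counted by size alone, with no test, 10 Nduf genes were at least 1.5-fold higher than ND in both HFD arrays, against 12.7% of all genes, and 0 were at least 1.5-fold lower, against 14.9%. At 2-fold the counts were 3 higher, a share close to the 6.00% of all genes, and 0 lower, against 2.60%. The smaller of a gene's differences to ND exceeded the difference between the HFD arrays for 40 of the 42, against 73.6% of all genes. The exceptions were Ndufs1 and Ndufb11. By log2 difference, 19 Nduf genes (45.2%) lay in the top 20% of all genes tested, and 7 (16.7%) in the top 10%.

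**Figure D1:**
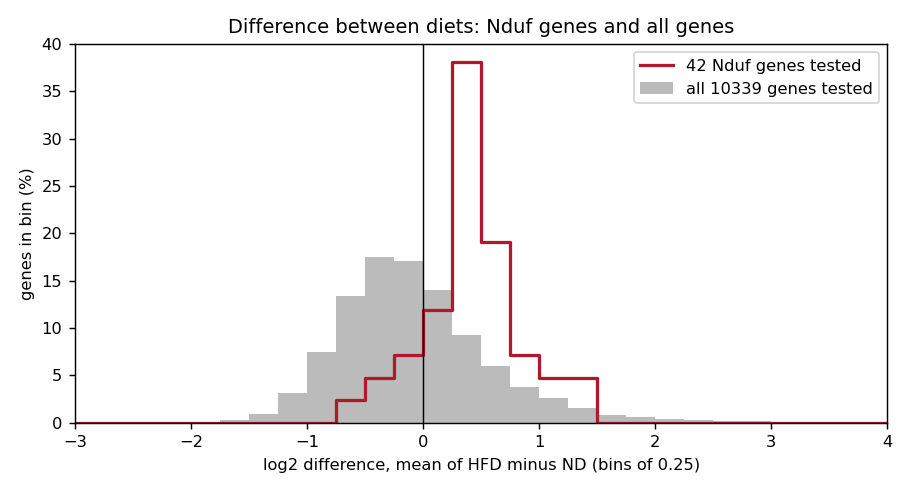
Share of genes (%, vertical axis) by log2 difference between the HFD mean and ND (horizontal axis, bins of 0.25), for all 10339 genes tested (grey bars) and the 42 Nduf genes (red line); a few other genes below -3 or above 4 lie off the axis. The Nduf genes peak between 0.25 and 0.50, which holds 16 of them, while the median of all genes is -0.15.

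**Figure D2:**
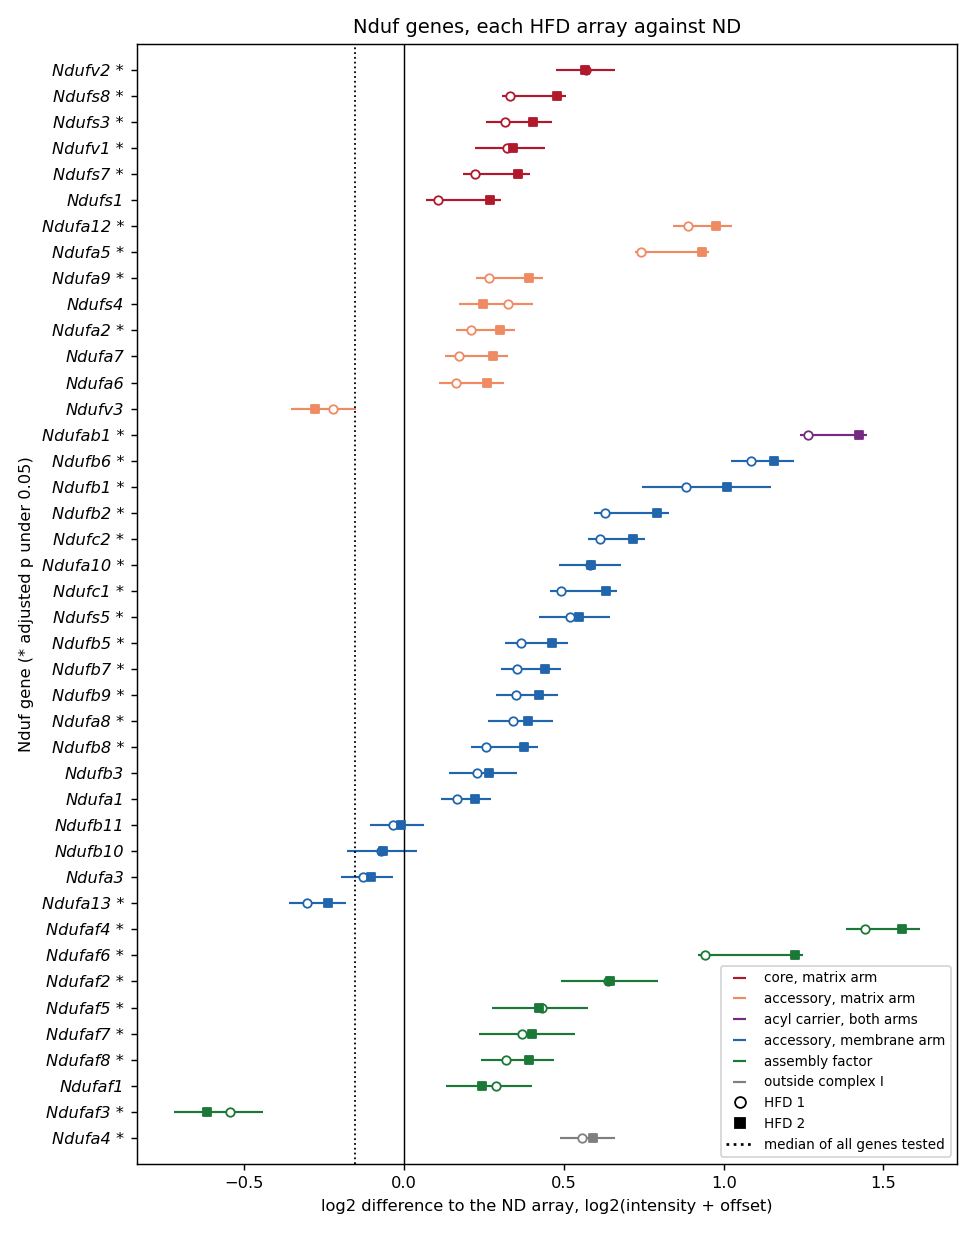
Log2 difference to the ND array (horizontal axis) for the 42 Nduf genes tested, coloured by role, with open circles for HFD 1, squares for HFD 2 and lines for the fitted mean ± SE. The dotted line is the median of all genes tested at -0.15, asterisks mark genes with an adjusted p under 0.05, and 36 genes have both points to the right of 0.

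Among the Nduf genes tested, only Ndufaf4, Ndufab1 and Ndufb6 were more than 2-fold higher in both HFD arrays. Ndufaf4, which acts with Ndufaf3 early in the building of the enzyme, read 1347 on ND, 3691 on HFD 1 and 3998 on HFD 2. Both HFD values were far above ND and close to each other, giving 2.83-fold (log2 1.499 ± 0.12 SE, adjusted p = 5.8e-07), with 1.48 on its other probe set. Ndufab1, the mitochondrial acyl carrier protein, which sits in both arms of the enzyme and also serves mitochondrial fatty acid synthesis, read 2710 on ND and 6537 and 7299 on HFD. That is 2.54-fold (log2 1.34 ± 0.11 SE, adjusted p = 6.7e-07), and its 3 other probe sets past the filter read 1.66, 0.50 and 1.16. Ndufb6, an accessory subunit of the membrane arm, read 3267 on ND and 6948 and 7311 on HFD, 2.18-fold (log2 1.12 ± 0.10 SE, adjusted p = 1.7e-06). Its second probe set gave the same log2 difference of 1.12.

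The stretch before the transcription start is shown for these 3 genes and for Ndufaf3, the Nduf gene that fell most, so that the ends of the family's range can be set side by side. Sequences are the 250 bases before the start, from RefSeq on GRCm38.p6, read on the gene's strand. Capitals mark matches to the letters known for NRF1 (GCGC and TGCGC with any 1 base between), ETS factors (CCGGAAG), YY1 (AAGATGGC) or the E-box (CACGTG), on either strand. The windows are chr4:24897833-24898082 on the plus strand for Ndufaf4 and, on the minus strand, chr4:40279422-40279671 for Ndufb6, chr7:122101849-122102098 for Ndufab1 and chr9:108567437-108567686 for Ndufaf3.
Ndufaf4: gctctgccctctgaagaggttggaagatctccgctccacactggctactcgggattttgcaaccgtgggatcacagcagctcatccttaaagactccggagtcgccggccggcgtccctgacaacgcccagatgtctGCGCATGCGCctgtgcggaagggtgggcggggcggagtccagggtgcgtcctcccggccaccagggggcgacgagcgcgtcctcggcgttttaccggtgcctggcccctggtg
Ndufb6: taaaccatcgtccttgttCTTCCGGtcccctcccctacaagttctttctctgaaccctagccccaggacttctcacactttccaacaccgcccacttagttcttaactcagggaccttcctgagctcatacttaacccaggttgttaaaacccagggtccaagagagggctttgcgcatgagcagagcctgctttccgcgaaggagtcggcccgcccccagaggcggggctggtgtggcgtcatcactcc
Ndufab1: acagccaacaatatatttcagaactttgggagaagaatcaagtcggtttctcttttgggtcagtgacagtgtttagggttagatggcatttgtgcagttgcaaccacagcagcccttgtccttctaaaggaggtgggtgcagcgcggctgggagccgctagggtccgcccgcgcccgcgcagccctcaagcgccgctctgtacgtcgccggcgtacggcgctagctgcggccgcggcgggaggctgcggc
Ndufaf3: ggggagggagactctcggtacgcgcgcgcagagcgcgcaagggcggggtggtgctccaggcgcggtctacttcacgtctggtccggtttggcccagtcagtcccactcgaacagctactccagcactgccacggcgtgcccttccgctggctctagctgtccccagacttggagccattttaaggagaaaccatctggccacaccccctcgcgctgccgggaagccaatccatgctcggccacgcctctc
The Ndufaf4 window holds 1 match to the NRF1 letters, 113 to 104 bases before the start. That of Ndufb6 holds 1 match to the ETS letters, 232 to 226 bases before the start. Neither Ndufab1 nor Ndufaf3 has a match to these 4 motifs in this window.

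Promoters were matched for 39 of the 44 genes, the others being Ndufa2, Ndufa4l2, Ndufaf6, Ndufb9 and Ndufs1. The 39 genes had 41 promoters. An Nduf gene counted if any of its promoters matched, while the shares set beside it are per promoter. In the 250 bases before the start, the NRF1 letters occurred in 5 of the 39 genes (12.8%), against 3.74% of all 32851 promoters and 8.66% of those of the genes tested. The 5 were Ndufa5, Ndufa8, Ndufaf4, Ndufb4 and Ndufs5, of which 4 were called higher. The ETS letters also occurred in 5 genes (12.8%), against 6.91% of all promoters and 14.5% of those of tested genes, and the E-box in 2 (5.1%), against 6.02% and 8.47%. Matches to the GC box (GGGCGG, 19 genes), the CCAAT box (CCAATC, 9 genes) and the TATA box (TATAAA, 4 genes) occurred in 48.7%, 23.1% and 10.3% of the genes. For promoters of tested genes these shares were 57.8%, 19.0% and 6.29%, and for all promoters 32.7%, 14.6% and 12.4%. Counted by promoter, the NRF1 letters occurred in 6 of the 41 Nduf promoters, the E-box in 3 and the TATA box in 5. The other counts were the same as by gene.

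The YY1 letters were absent from every Nduf window before the start, but 7 of the 39 genes (17.9%) held them once the 50 bases after the start were added. This compares with 2.75% of all 300-base windows and 4.73% of those of tested genes. In the same 300-base windows the NRF1 letters occurred in 7 genes (17.9%), against 10.69% of windows of tested genes. The ETS letters occurred there in 6 genes (15.4%), against 18.86%, and the E-box in 2 (5.1%), against 10.18%. The YY1 sites are shown with up to 8 bases on either side, on the gene's strand, since they all fall in one narrow stretch.
Ndufaf8: cagggcccAAGATGGCggcgccct
Ndufc1: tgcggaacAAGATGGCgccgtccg
Ndufa3: ccaagaacAAGATGGCcgggagta
Ndufs7: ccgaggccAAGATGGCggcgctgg
Ndufa9: tgtgggagAAGATGGCggccgccg
Ndufs4: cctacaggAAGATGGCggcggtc
Ndufb8: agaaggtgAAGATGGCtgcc
The matches read in the sense direction and begin between base 11 and base 39 of the transcript. On GRCm38.p6 the printed stretches lie at chr11:120098936-120098959 for Ndufaf8, chr7:3617387-3617410 for Ndufa3 and chr10:80249465-80249488 for Ndufs7 on the plus strand. On the minus strand they lie at chr3:51408918-51408941 for Ndufc1, chr6:126849100-126849123 for Ndufa9, chr13:114388045-114388067 for Ndufs4 and chr19:44555393-44555412 for Ndufb8. Of these genes, 5 were called higher, and Ndufa3 and Ndufs4 were not called. The letters contain ATG, so a match can coincide with a first codon, and a match is a description and not a binding site.

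**Figure D3:**
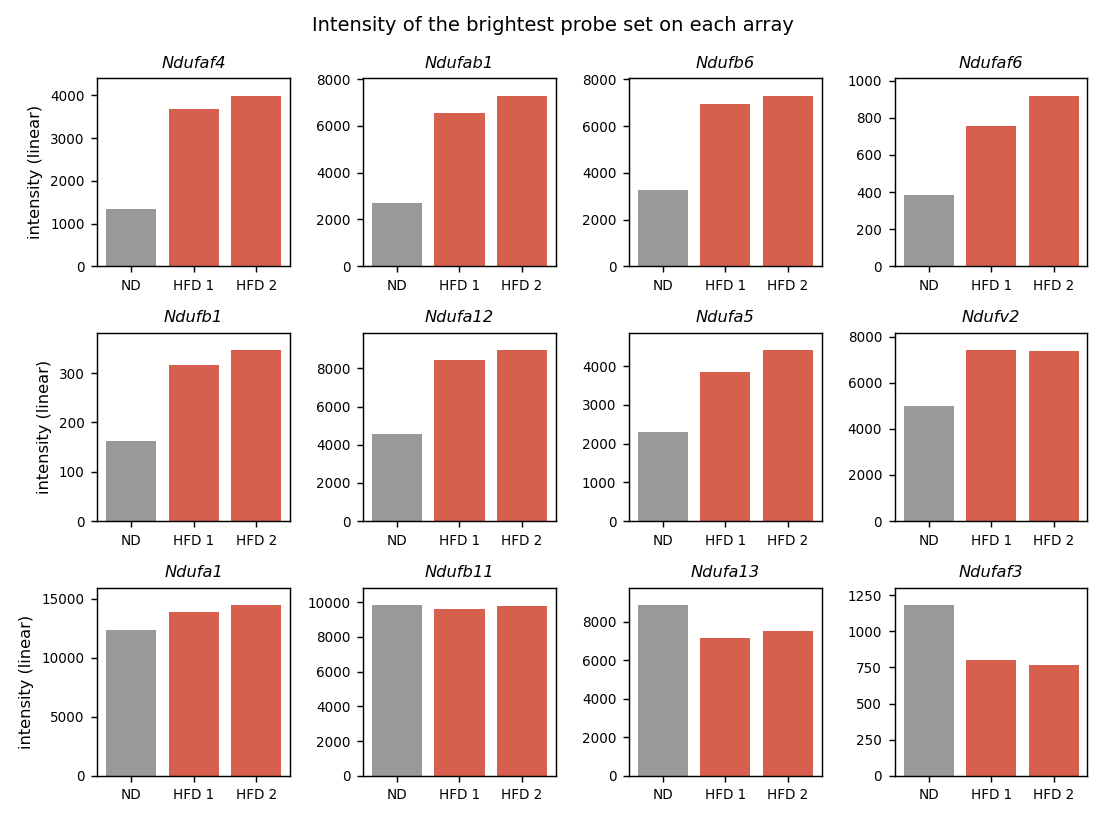
Linear intensity of the brightest probe set on the ND array (grey) and both HFD arrays (red) for 12 Nduf genes, each panel with its own axis from 0. Ndufaf4 stands at 1347 on ND and 3691 and 3998 on HFD, Ndufb11 is nearly level, and Ndufa13 and Ndufaf3 are lower on both HFD arrays.

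The catalytic core of the matrix arm was higher as a whole but by small amounts. Of 6 core genes measured, 5 rose, 0 fell and 1 was not called, with a median log2 difference of 0.35. Ndufv2, whose protein carries an iron-sulfur cluster beside the NADH site, read 4988 on ND and 7415 and 7391 on HFD, 1.48-fold (log2 0.57 ± 0.09 SE, adjusted p = 2.9e-04). The HFD arrays were nearly equal, and its other probe sets read 0.45 and 0.56. Ndufv1, which binds NADH and the flavin, read 2711 on ND and 3393 and 3436 on HFD, 1.26-fold (adjusted p = 0.0225). Ndufs8, which holds iron-sulfur clusters near the ubiquinone site, read 5381 on ND and 6779 and 7512 on HFD, 1.32-fold (adjusted p = 0.0046).

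Of the 5 other probe sets of Ndufs8, 4 read 0.24 to 0.43 and the dimmest read -0.23. Ndufs3, which joins the arm near the ubiquinone site, read 3885 on ND and 4845 and 5141 on HFD, 1.28-fold. Ndufs7, which holds the last iron-sulfur cluster before ubiquinone, rose 1.22-fold. The largest core subunit gene, Ndufs1, read 2584 on ND and 2782 and 3113 on HFD. Its log2 difference was 0.19 ± 0.12 SE (adjusted p = 0.206), and the gap between the HFD arrays, 0.16, was wider than that from ND to HFD 1, 0.11.

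Of 8 accessory genes of the matrix arm measured, 4 rose, 0 fell and 4 were not called, with a median of 0.27. Ndufa12, a subunit placed late in assembly, read 4536 on ND and 8420 and 8949 on HFD, 1.91-fold (log2 0.93 ± 0.09 SE, adjusted p = 5.6e-06). Its other bright probe sets read 0.39 and 1.52, either side of that value, and a dim one read -0.01, so the size of its rise depended on the probe set. Ndufa5 read 2301 on ND and 3859 and 4409 on HFD, 1.79-fold (log2 0.84 ± 0.12 SE, adjusted p = 8.7e-05), with 0.78 on its other probe set.

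Ndufa9, a nucleotide-binding subunit near the ubiquinone site, read 4054 on ND and 4879 and 5326 on HFD, 1.26-fold (adjusted p = 0.0188), and Ndufa2 rose 1.19-fold (adjusted p = 0.0376). The Ndufa2 call was lost in 5 of the 9 alternative fits, with adjusted p between 0.0532 and 0.239. Among those not called, Ndufa7 stood at 0.23 and Ndufa6 at 0.21 on the log2 scale. Ndufs4, a subunit whose loss causes a severe mitochondrial disease, read 2092 on ND and 2627 and 2487 on HFD (log2 0.29 ± 0.12 SE, adjusted p = 0.0567). Its 3 other probe sets read 0.30, -0.53 and -0.18, the lower values coming from dimmer probe sets. Ndufv3 was the one matrix-arm gene with both HFD arrays below ND, at 5021 on ND and 4299 and 4136 on HFD (log2 -0.25 ± 0.10 SE, adjusted p = 0.0558).

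The membrane arm, the proton-pumping part anchored in the inner membrane, held genes that rose and several that were not called. Of 18 accessory genes tested, 12 rose, 1 fell and 5 were not called, with a median of 0.39. After Ndufb6 (above), Ndufb1 read 163 on ND and 316 and 346 on HFD, 1.93-fold (log2 0.95 ± 0.20 SE, adjusted p = 0.0020), from the dimmest probe set among the genes tested. Ndufb2 read 2169 on ND and 3366 and 3770 on HFD, 1.64-fold (log2 0.71 ± 0.12 SE, adjusted p = 3.0e-04). Its second bright probe set read 0.75 and a dim one -0.14.

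Ndufc2 read 6606 on ND and 10104 and 10860 on HFD, 1.58-fold, and its other probe sets past the filter read 0.64 and 0.85. Ndufa10, which has the fold of a nucleoside kinase, read 4209 on ND and 6304 and 6315 on HFD, 1.497-fold (adjusted p = 3.2e-04), with the HFD arrays almost identical. Its second probe set, with a mean intensity of only 72.8, read -0.57, and averaging both ended the call (adjusted p = 0.980). Ndufc1 rose 1.48-fold and Ndufs5, a cysteine-rich subunit facing the intermembrane space, 1.45-fold. Smaller rises were called for Ndufb5 (1.33-fold), Ndufb7 (1.32-fold), Ndufb9 (1.31-fold), Ndufa8 (1.29-fold) and Ndufb8.

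Ndufb8, often used as the marker protein of assembled complex I, read 3782 on ND and 4516 and 4911 on HFD, 1.24-fold (adjusted p = 0.0246), with -0.01 on a dim second probe set. This call was lost under quantile normalization (adjusted p = 0.0666), with no filter (adjusted p = 0.0784), without a variance trend (adjusted p = 0.132) and with probe sets averaged, where the log2 difference fell from 0.32 to 0.15 (adjusted p = 0.474). Several other membrane-arm genes were not called. Ndufb11 read 9823 on ND and 9582 and 9759 on HFD (log2 -0.02 ± 0.08 SE, adjusted p = 0.843). Its other probe sets read 0.03 and 0.11, so its sign was not settled. Under quantile normalization, however, Ndufb11 was called lower (log2 -0.21, adjusted p = 0.0353). Ndufa3 read 12007 on ND and 10991 and 11186 on HFD (log2 -0.11 ± 0.08 SE, adjusted p = 0.259), with 0.02 and -0.60 on its others. Ndufb10 stood at -0.07, Ndufa1 at 0.19 and Ndufb3 at 0.25 on the log2 scale, none of them called.

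Ndufa13, also known as GRIM-19 and as a binding partner of STAT3, fell. It read 8859 on ND and 7177 and 7508 on HFD, 1.21-fold lower (log2 -0.27 ± 0.09 SE, adjusted p = 0.0241). The call was lost when arrays were centred (adjusted p = 0.133), when no filter was applied (adjusted p = 0.0915) and when the variance trend was dropped (adjusted p = 0.161). Ndufb4 was dim on its single-gene probe set, at 17.8 on ND and 28.5 and 36.8 on HFD, and was not tested. Brighter probe sets that list Ndufb4 together with Ndufb4b and Ndufb4c were among those set aside. One read 3187 on ND and 4854 and 5218 on HFD (log2 0.66). The other read 2549 on ND and 4151 and 4425 on HFD (log2 0.75).

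Assembly factors held both ends of the family. Of 8 measured, 6 rose, 1 fell and 1 was not called, with a median of 0.40. Ndufaf4 (above) had the largest rise of all Nduf genes and Ndufaf3 the largest fall, although their proteins bind each other during assembly. Ndufaf3 read 1181 on ND and 804 and 764 on HFD, 1.49-fold lower (log2 -0.58 ± 0.14 SE, adjusted p = 0.0042), on its only probe set. Both HFD arrays were below ND and near each other, and the gene was called lower in each of the 9 alternative fits.

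Ndufaf6, a membrane-associated factor needed early in assembly, read 384 on ND and 754 and 920 on HFD, 2.12-fold (log2 1.08 ± 0.16 SE, adjusted p = 1.7e-04). Its HFD arrays were the farthest apart in the family, by 0.28. Ndufaf2, a paralog of Ndufa12 that occupies its place until late assembly, read 438 on ND and 693 and 696 on HFD, 1.56-fold (log2 0.64 ± 0.15 SE, adjusted p = 0.0037). Both the factor and its successor were thus higher in HFD.

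Ndufaf5 and Ndufaf8, partners in the modification of Ndufs7, rose 1.34-fold and 1.28-fold (adjusted p = 0.0330 and 0.0206). Ndufaf7, a methyltransferase needed for assembly, rose 1.31-fold with an adjusted p of 0.0477, close to the threshold. Ndufaf1, which helps build the membrane arm, read 960 on ND and 1175 and 1139 on HFD (log2 0.26 ± 0.13 SE, adjusted p = 0.119).

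A pair of genes carry the Nduf name without being counted to complex I here. Ndufa4, now regarded as a subunit of cytochrome c oxidase (complex IV), read 6536 on ND and 9629 and 9849 on HFD, 1.49-fold (log2 0.57 ± 0.09 SE, adjusted p = 1.7e-04). Ndufa4l2, its hypoxia-induced relative, read 12.7 on ND and 11.4 and 15.4 on HFD, below the filter on all arrays. Without this pair, 28 of 41 tested genes of complex I rose and 2 fell, with a median of 0.36.

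Where a gene had several probe sets, the bright ones told nearly the same story. Of 28 further probe sets with a mean intensity above 1000, 25 had the sign of the gene's brightest, and the median absolute difference from it was 0.05 on the log2 scale. Of 13 further probe sets past the filter at 1000 or less, 6 had that sign, with a median absolute difference of 0.48. Signs differed within 8 of the 22 genes with 2 or more probe sets past the filter, namely Ndufa3, Ndufa10, Ndufa12, Ndufb2, Ndufb8, Ndufb11, Ndufs4 and Ndufs8. For all but Ndufa3 and Ndufb11 the opposite sign came only from probe sets with a mean intensity under 1000.

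**Figure D4:**
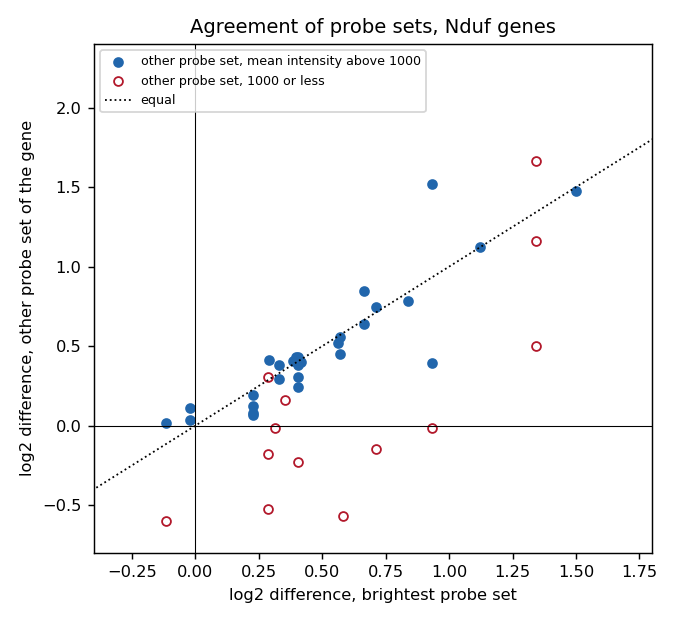
Log2 difference (HFD minus ND) of each further probe set past the filter (vertical axis) against that of the gene's brightest probe set (horizontal axis), filled for a mean intensity above 1000 and open for 1000 or less, with a dotted line of equality. Of 28 filled points 25 have the sign of the brightest probe set, against 6 of 13 open points.

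The HFD arrays also differed slightly in the family. HFD 2 read above HFD 1 for 36 of the 42 genes, by a median of 0.07 on the log2 scale, against 50.6% of all genes and a median of 0.00. This shift lies within the diet group and is smaller than the distance to ND for nearly all members.

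Other genes of the same pathway are given from lists fixed by function. Of 14 assembly factors of complex I with other names, 6 rose and 0 fell (median 0.33). They included Chchd4, which imports cysteine-rich proteins into the intermembrane space (1.69-fold), and Tmem70 (1.54-fold). In complex II 4 of 8 genes rose and 0 fell (median 0.25). Among them were the membrane anchor Sdhd (1.89-fold, log2 0.92, its other probe set at 0.49) and the assembly factor Sdhaf3 (1.84-fold). In complex III 10 of 13 rose and 1 fell (median 0.69), led by Uqcrfs1, the Rieske iron-sulfur protein (2.01-fold), and Uqcrq (2.05-fold, its other probe set at -0.01).

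In complex IV 11 of 20 rose and 3 fell (median 0.28), with the copper chaperone Sco2 2.04-fold higher and the subunit Cox7c 1.62-fold lower. Complex V, the ATP synthase, had 16 of 21 higher and 0 lower (median 0.36), with Atp5md at 2.09-fold and Atp5g1 at 1.68-fold. The Nduf median of 0.37 thus lay inside the range of the other complexes. No difference between complexes was tested.

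**Figure D5:**
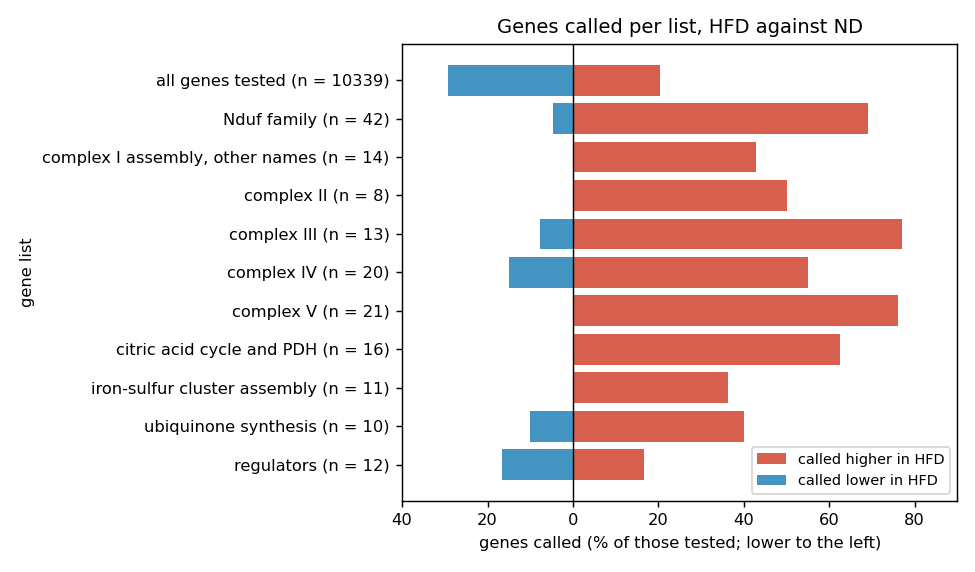
Genes called higher (red, to the right) and lower (blue, to the left) in HFD as a percent of the genes tested in each list, with all 10339 genes on top. The Nduf family has 69.0% higher, complex III 76.9% and complex V 76.2%, against 20.5% of all genes.

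Steps that feed complex I or share its substrate were also measured. Among citric acid cycle and pyruvate dehydrogenase genes, which supply NADH, 10 of 16 rose and 0 fell (median 0.49). They were led by Fh1, fumarate hydratase (1.87-fold), and Idh3a, a subunit of isocitrate dehydrogenase, at 2.04-fold but with its other probe sets at 0.37, -1.47 and 0.15. Of 11 genes of iron-sulfur cluster assembly, 4 rose and 0 fell (median 0.29), including the chaperone Hspa9 (3.43-fold) and Glrx5 (1.998-fold). Hspa9 stood at log2 1.78, with its other probe sets at 1.87, 1.06 and 0.71. Of 10 genes of ubiquinone synthesis, 4 rose and 1 fell (median 0.29), with Coq4 at 3.96-fold and Coq7 at 2.79-fold.

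Other proteins that pass electrons to ubiquinone, with Etfa and Etfb counted although they do so only through Etfdh, went both ways. Of 7 tested, 3 were higher and 2 lower (median 0.17). Etfa was among the higher ones at log2 0.47, while Etfb (0.17) and Etfdh (0.002) were not called. Dhodh, of pyrimidine synthesis, rose 2.65-fold (log2 1.41, its other probe set at 0.72). Chdh, choline dehydrogenase, fell 2.95-fold. Among 12 regulators of respiratory genes, 2 rose (16.7%) and 2 fell (median 0.12), against 20.5% and 29.2% of all genes tested. As a list they therefore did not stand out in calls. Myc, a growth-promoting transcription factor, read 777 on ND and 4629 and 5008 on HFD, 6.08-fold, and Pprc1, a coactivator of the PGC family, rose 2.56-fold. Those that fell, chosen after their values were seen, were Nrf1 itself (1.43-fold, adjusted p = 0.0128) and Esrra (1.38-fold, adjusted p = 0.0335).

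Markers of other cells and of dividing cells also differed between the ND array and the HFD arrays. Of 10 macrophage and monocyte genes tested, 8 were lower and 0 higher, and the summed intensity of the 14 on the array was 13480 on ND and 8235 and 8475 on HFD, with Marco between 1.39 and 8.61. Of 7 dendritic cell genes 4 were lower and 0 higher, the list of 8 summing to 2159 on ND and 895 and 1065 on HFD. Among 6 B cell genes tested 2 were higher and 2 lower, with a median log2 difference of -0.32 and the lowest at -0.75. The list of 11 summed to 11371 on ND and 10564 and 11286 on HFD. Cd79a, Pax5, Blk, Ebf1 and Cr2 were under the filter. The B cell genes that rose did so steeply, Ms4a1 from 56.8 to 1612 and 1837 and Fcer2a from 31.6 to 524 and 644. Of 3 neutrophil genes tested 2 were higher, S100a8 and S100a9 (list of 7 at 189 on ND and 611 and 692 on HFD, Elane between 2.36 and 12.9).

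The lists of NK cells (1 higher and 1 lower of 2; sums 1814 on ND, 1530 and 1528 on HFD) and of CD8 T cells (1 higher of 2; 449 on ND, 581 and 715 on HFD) were small. Of 5 platelet genes 1 was tested and not called (257 on ND, 309 and 241 on HFD), and the 5 erythroid genes were all under the filter (125 on ND, 93.2 and 39.7 on HFD). Cell cycle genes were 6 higher and 1 lower of 9, summing to 24654 on ND and 45159 and 47649 on HFD. The part of these markers in the Nduf result was not tested. As a check of RNA quality, the ratio of the 3′ to the 5′ control probe set was 0.72 on ND and 0.68 and 0.71 on HFD for Gapdh, and 1.29 and 1.27 and 1.34 for beta-actin.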

How the data were processed

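RNA from 3 samples was measured on Affymetrix arrays. The deposited values are linear intensity per probe set, from GCOS per the submitters' processing notes; the algorithm is not given in the sources used here. As computed, each array's mean after trimming 2% at each end is 500. The medians outside 64 control probe sets were 78.3 on ND and 69.7 and 67.4 on HFD.

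Values were kept on that scale and transformed as log2(intensity + 17.7), where 17.7 is the lower quartile over the arrays. Genes with a mean above 71.5 (the median), each by its brightest probe set, were fitted in limma 3.58.1 (lmFit, eBayes with a trend; R 4.3.3), with two-sided p-values adjusted by Benjamini-Hochberg across 10339 genes, calls being made under 0.05. The residual has 1 degree of freedom, moderated with 11.7 prior degrees. The model was run on simulated data in which the ND array was made to vary like the HFD arrays. That run therefore cannot check this assumption. Symbols came from the platform annotation, and all 44 matched RefSeq by Entrez identifier. Fold changes are on the offset log2 scale. The median and the size rule are descriptions.

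The members and lists were chosen with earlier results of these data known. Each Nduf gene is named; array values are given for the 3 largest changes per role group, those called lower and those whose probe sets differ in sign, with a few others. Of each other list the 2 called genes with the largest smaller difference to ND are named.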

Additional observations from a re-analysis of the deposited data

How the results depend on the processing

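Of the 29 genes called higher, 14 were so in each of the 9 alternative fits that tested them, among them Ndufaf4, Ndufab1, Ndufb6, Ndufaf6, Ndufa12 and Ndufa5. The count of higher genes was 21 to 34 in 8 of these fits, and 15 without a variance trend. The share of all genes called higher moved as well. It was 9.14% with no filter, where the Nduf count was 21, and 23.3% with arrays centred, where it was 34. With the filter at the 75th percentile it was 28.6%, and without a variance trend 16%. The count of lower genes was 5 under quantile normalization, and 1 with arrays centred, with no filter and without a variance trend, against 2. Under quantile normalization Ndufa3, Ndufb11 and Ndufv3 were called lower besides Ndufa13 and Ndufaf3. Of all genes, 26.2% were called lower under quantile normalization and with arrays centred, 10.6% with no filter and 21.4% without a variance trend. The relative median moved to 0.37 under quantile normalization and 0.46 with the filter at the 75th percentile. Signs turned for Ndufa1 (-0.0201, quantile), Ndufb11 (0.0436 centred, 0.0410 with probe sets averaged) and Ndufs4 (-0.0291, averaged), none of them called there. The cause was not tested. With a single HFD array no test is possible: the relative median was then 0.47 to 0.55, the count at least 1.5-fold higher 10 to 12, and the count at least 1.5-fold lower 0 to 1. No paired analysis was possible because the ND group has 1 array and no replicate number. Detection calls were not used, so how far dim values such as those of the single-gene Ndufb4 probe set exceed background is unknown.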
